A study of Mus musculus with 6 samples.

Results

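Forkhead box O (FoxO) transcription factors and the muscle ubiquitin ligases, taken as 10 genes chosen by name, were described in hearts of mice on 2 diets. The 10 genes are the FoxO genes Foxo1, Foxo3 and Foxo4 and 7 ligase genes, Fbxo32, Trim63, Trim54, Trim55, Fbxo30, Fbxo40 and Cblb. All 10 were found among the 23808 genes listed, and all 10 were among the 11456 that were tested because their mean reached 1 FPKM. FPKM counts fragments per kilobase of gene and is scaled to the size of the library, so levels can be compared between genes. The libraries came from whole hearts of wild-type (WT) female mice, 3 libraries from mice on normal chow (NC) and 3 from mice on a high-fat diet (HFD), each diet given between 4 and 12 weeks of age. No treatment or allele other than the diet is given for either group. The labels number the libraries 1 to 3 within a diet and do not say that they came from separate animals, so the spread behind each p-value, that between libraries of a diet, may be technical.

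As background, FoxO factors are held out of the nucleus when insulin or IGF-1 activates AKT, which phosphorylates them and lets 14-3-3 proteins bind them, and they enter the nucleus in fasting or when insulin signalling is low. In striated muscle they switch on genes of protein breakdown, among them Fbxo32, which encodes atrogin-1, and Trim63, which encodes MuRF1. Atrogin-1 is an F-box protein, the part of a cullin ligase complex that holds the substrate, whereas the MuRF proteins are RING ligases that bind the sarcomere. The glucocorticoid receptor also acts on Trim63, and Klf15 is a glucocorticoid target that acts on both ligase genes.

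Promoter sequence is shown for 2 of the MuRF genes because Trim63 is the ligase gene known as a joint target of FoxO and the glucocorticoid receptor, and Trim54 is its most abundant relative here. RefSeq promoter entries (GRCm38.p6, the assembly of mm10) matched 7 of the 10 genes, and in each the 250 bases before the annotated start were searched on both strands. Fbxo32, Foxo4 and Trim55 had no entry, so their promoters were not searched. The letters searched were GTAAACA, a core of FoxO sites (TGTTTAC on the other strand), CAAAACA, a core of insulin response sequences, and AGAACA and TGTTCT 3 bases apart, a palindrome bound by the glucocorticoid receptor. GTAAACA was found in 1 of the 7 genes, Trim63, and in 3.17% of all 32851 promoters. Its 7 letters lie 194 to 188 bases before the start of Trim63, as TGTTTAC. Neither CAAAACA (5.56% of promoters) nor that palindrome (3 promoters in all) was found in the 7 genes. A shorter palindrome, GAACA and TGTTC 3 bases apart, searched after the Trim63 sequence had been read, lies 208 to 196 bases before its start, 1 base away from TGTTTAC, and is present in 13 of the 32851 promoters. Trim54 held none of the 4 motifs in its window, which ends at position 31116611. GENCODE annotation starts Trim54 at 31116712, and the bases between these positions were not searched. These matches are descriptions of letters, and binding was not measured. In the sequences below, 5′ to 3′ on the plus strand, capitals mark the shorter palindrome with its spacer and then TGTTTAC. Trim63 is at chr4:134314870-134315119 and Trim54 at chr5:31116362-31116611.
Trim63: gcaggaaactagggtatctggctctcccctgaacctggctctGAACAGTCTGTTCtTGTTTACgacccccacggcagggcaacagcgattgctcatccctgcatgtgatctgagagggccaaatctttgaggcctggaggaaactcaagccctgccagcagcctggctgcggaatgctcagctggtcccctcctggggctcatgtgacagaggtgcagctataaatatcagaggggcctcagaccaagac
Trim54: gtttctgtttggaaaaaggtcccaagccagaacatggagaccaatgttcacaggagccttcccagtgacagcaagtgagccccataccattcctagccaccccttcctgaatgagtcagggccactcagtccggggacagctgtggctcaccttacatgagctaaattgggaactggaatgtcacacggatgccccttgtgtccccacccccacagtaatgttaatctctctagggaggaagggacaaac

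Several facts of the libraries bear on these genes. The depth is unknown, since read counts were not recovered from FPKM. Library totals differed, from 576334 summed FPKM in HFD 1 to 739406 in NC 1, and the median ratio of a library to the others, over genes above 1 FPKM in all 6, ranged from 0.882 in HFD 1 to 1.15 in HFD 3. HFD 1 was listed at 0 for the mitochondrially encoded genes mt-Co2, mt-Nd4, mt-Cytb and mt-Nd4l, which were above 0 in the other libraries. HFD 3 held the highest value for 34.5% of the 11456 tested genes, and for 14.5% after each library was divided by its median ratio. Cardiomyocyte markers were abundant in each library (7 genes, summed level 21525 to 32126 FPKM). Among the skeletal muscle markers, 7 of 8 listed were in the table, where the fast myosin genes Myh1 and Myh2 were at most 0.0329 FPKM, while Ckm and Acta1, which the heart also expresses, made up most of the sum. Atrial markers differed widely within each diet, with summed levels of 3518, 355 and 13794 FPKM in chow libraries 1, 2 and 3 and of 1541, 438 and 7052 FPKM in HFD 1, HFD 2 and HFD 3.

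By level the 10 genes spanned from Trim54 to Cblb, and the MuRF genes Trim54 and Trim63 stood above the rest in each of the 6 libraries. Trim54 (MuRF3, which binds microtubules) had a mean of 84.5 FPKM over the 6 libraries, and Trim63 followed at 33.0 FPKM. Their library ranges, 64.5 to 111 and 25.0 to 49.5 FPKM, did not overlap. Fbxo40, a muscle F-box gene, had a mean level of 14.6 FPKM, and its range of 9.17 to 17.4 FPKM did not reach that of Trim63. Then came Foxo4 at 10.3, Fbxo32 at 7.56, Trim55 at 5.43 and Foxo3 at 5.14 FPKM, and each of these overlapped its neighbour in range. Foxo3 lay above Fbxo30 (2.58 FPKM) in all 6 libraries without overlap. Foxo1 at 1.94 FPKM and Cblb at 1.24 FPKM closed the order, each with a range that overlapped that of the gene before it, although Foxo1 was the higher of this pair in all 6 libraries.

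**Figure D1:**
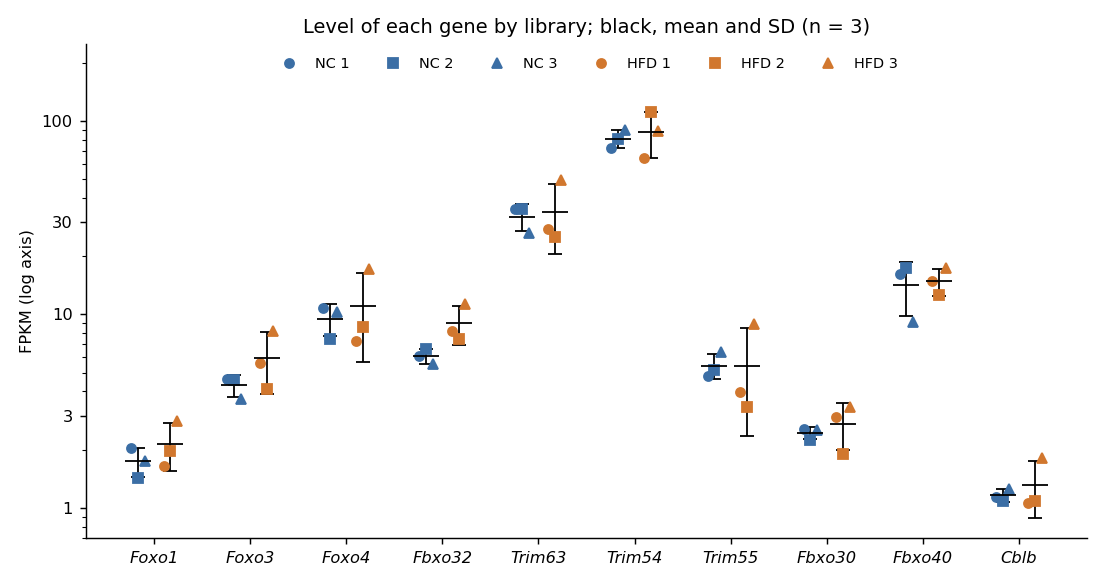
FPKM of each gene in each library (log axis), blue for NC and orange for HFD, with marker shapes for libraries 1 to 3 and black lines for the mean and SD of 3 libraries. The HFD values of Fbxo32 lie above its NC values, while in the other 9 genes the diets overlap, and HFD 3 is the highest library in 8 of the 10 genes. Over all tested genes, 3.25% had HFD above NC throughout, 4.88% had HFD below and 34.5% were highest in HFD 3.

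The comparison between the diets asked whether these genes differ in level in the heart after a high-fat diet. Fbxo32 was the 1 gene of the 10 whose HFD libraries all lay above its NC libraries, and its mean was 1.48 times as high on HFD. HFD lay above NC throughout in 3.25% of all tested genes and below NC throughout in 4.88%. Foxo1, Foxo3 and Foxo4 and 5 of the other 6 ligase genes also had a log2 fold change above 0, all smaller than that of Fbxo32, and Trim55 had one below 0. None of the 10 passed the test (limma adjusted p = 0.9998 for each, Benjamini-Hochberg over 11456 genes, threshold 0.05), and neither did any other gene (0% of those tested). Before adjustment 415 genes (3.62%) had a p under 0.05, and 0 of the 10 were among them. Of all tested genes 46.9% had a log2 fold change above 0, against 9 of these 10. Leaving out HFD 3, the library with the highest median ratio, lowered the values of genes in general: 33.6% of all tested genes were then above 0, against 4 of these 10. The median log2 fold change of the 10 genes was 0.10, against −0.02 over all tested genes. Without HFD 3 it was −0.01, against −0.11 over all tested genes, and each value given without HFD 3 is to be read beside that shift.

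Among the FoxO genes, Foxo1 is the family member best known for control of glucose metabolism by insulin. Its level was 2.03, 1.43 and 1.76 FPKM in chow libraries 1, 2 and 3 and 1.65, 1.97 and 2.81 FPKM in HFD 1, HFD 2 and HFD 3. Only HFD 3 lay above the chow range. The log2 fold change was 0.19 (SE 0.23) and shrank to 0.04 without HFD 3. By GENCODE annotation of mm10 Foxo1 is a plus-strand gene on chromosome 3 from 52268336 to 52353221. Its exons overlap those of the antisense gene Gm20402, which was at no more than 1.46 FPKM, in NC 3, and was listed at 0 in NC 1 and NC 2. Whether the counting used strand is not stated in the labels, and reads of such a pair may then be mixed.

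Foxo3, the family member most often linked to atrophy of muscle, had the largest difference of the 3 FoxO genes. Its level was 4.62, 4.60 and 3.66 FPKM on chow and 5.61, 4.11 and 8.24 FPKM on HFD. HFD 1 and HFD 3 lay above all chow values and HFD 2 lay inside them. The mean was 4.29 ± 0.550 FPKM on chow and 5.99 ± 2.09 FPKM on HFD (n = 3 each, ± SD), a log2 fold change of 0.36 (SE 0.25). Leaving out HFD 3 gave 0.14 and leaving out HFD 2 gave 0.57. Foxo3 lies on chromosome 10 from 42181841 to 42276755 on the minus strand.

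Foxo4 was the most abundant FoxO gene, at 10.8, 7.49 and 10.3 FPKM on chow and 7.32, 8.62 and 17.1 FPKM on HFD. HFD 3 was far above the other 5 libraries, and HFD 1 was the lowest of all. The log2 fold change was 0.12 (SE 0.29), and it was −0.22 without HFD 3 and −0.03 without NC 2. Foxo4 made up 60.9 ± 5.10% of the summed FoxO level on NC and 56.5 ± 5.59% on HFD (n = 3 each, ± SD). The summed level of the 3 genes was 13.5 to 17.5 FPKM in the NC libraries, 14.6 and 14.7 FPKM in HFD 1 and HFD 2 and 28.2 FPKM in HFD 3. Foxo4 lies on chromosome X from 101254528 to 101260873. Foxo6, the fourth FoxO gene and mostly known from brain, had a mean under 1 FPKM and was not tested. Its level was 0.663, 0.783 and 1.57 FPKM on chow and 0.361, 0.480 and 1.35 FPKM on HFD, highest in the third library of each diet.

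Fbxo32, the atrogin-1 gene, showed the clearest order of the diets. Its level was 6.07, 6.67 and 5.53 FPKM in chow libraries 1, 2 and 3 and 8.26, 7.49 and 11.3 FPKM in HFD 1, HFD 2 and HFD 3. All HFD values lay above all NC values, as they did for 3.25% of the tested genes. The mean was 6.09 ± 0.568 FPKM on chow and 9.03 ± 2.04 FPKM on HFD (n = 3 each, ± SD). The log2 fold change was 0.49 (SE 0.23, 95% interval −0.01 to 0.98, unadjusted p = 0.0529), and 3.81% of the tested genes had an unadjusted p as small or smaller. It stayed positive with each library left out, from 0.33 without HFD 3 to 0.60 without HFD 2. Without HFD 1 it was 0.53, and it was 0.49 when all libraries were scaled to a common sum over the genes above 0 in each. Division by the median ratios left the HFD libraries above the NC libraries, at 9.36, 7.69 and 9.85 against 5.61, 7.28 and 5.43 FPKM. There the log2 fold change was likewise 0.49 and the unadjusted p was 0.0238 (limma adjusted p = 0.950), in a fit where 5.08% of genes had an unadjusted p under 0.05. Fbxo32 lies on chromosome 15 from 58175879 to 58214932 on the minus strand. Its exons overlap those of the antisense gene Gm15943, which was between 0.318 and 0.677 FPKM in the 6 libraries.

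Trim63, which encodes MuRF1, did not follow Fbxo32 in its order of the diets. It was at 35.0, 34.9 and 26.3 FPKM on chow and at 27.5, 25.0 and 49.5 FPKM on HFD. HFD 1 and HFD 2 were near the lowest chow library, and HFD 3 was above all others. The mean was 32.1 ± 4.995 FPKM on chow and 34.0 ± 13.5 FPKM on HFD (n = 3 each, ± SD), a log2 fold change of 0.03 (SE 0.27, 95% interval −0.55 to 0.61). It turned to −0.27 without HFD 3, −0.10 without NC 3 and −0.06 with library weights, and reached 0.21 without HFD 2. The ratio of Fbxo32 to Trim63 was 0.173, 0.191 and 0.210 on chow and 0.300, 0.299 and 0.229 on HFD. The HFD ratios all lay above the NC ratios (exact two-sided permutation p = 0.1, the smallest that 3 against 3 libraries allow, and 0.6 adjusted over 6 such measures). All 6 measures, which are this ratio, the ratio of Trim54 to Trim63, the summed MuRF and FoxO levels and the shares of Trim54 and Foxo4 in those sums, were chosen after the values had been seen. Trim63 is a plus-strand gene of chromosome 4 from 134315120 to 134329629, and the promoter sequence printed for it ends at the base before.

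Trim54 and Trim55, the other MuRF genes, differed in how they followed Trim63. Trim54 was at 72.7, 80.2 and 90.2 FPKM on chow and at 64.5, 111 and 88.4 FPKM on HFD, so that HFD held both the lowest and the highest library. Its log2 fold change was 0.09 (SE 0.23), and −0.09 without HFD 2. Trim55, which encodes MuRF2, was at 4.81, 5.13 and 6.39 FPKM on chow and at 3.97, 3.34 and 8.92 FPKM on HFD. Its 2 lowest libraries and its highest one were all on HFD. The log2 fold change was −0.10 (SE 0.30). It was −0.47 without HFD 3, and 0.13 without HFD 2, 0.03 without HFD 1 and 0.003 without NC 3. Trim54 made up 68.2 ± 4.59% of the summed level of the 3 MuRF genes on NC and 69.0 ± 9.85% on HFD (n = 3 each, ± SD), from 60.2% in HFD 3 to 79.7% in HFD 2 (exact two-sided permutation p = 0.9). The summed MuRF level was 119 ± 5.38 FPKM on chow and 127 ± 27.6 FPKM on HFD (exact two-sided permutation p = 0.6). Exons of Trim54 overlap those of the antisense gene Gm15469, at up to 2.16 FPKM. Trim54 lies on chromosome 5 from 31116712 to 31137630 and Trim55 on chromosome 3 from 19644474 to 19692421, both on the plus strand.

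The remaining F-box genes are Fbxo30, known as MUSA1, a ligase gene of denervated muscle under control of BMP signalling, and Fbxo40, whose product is known to bind IRS1, the insulin receptor substrate. Fbxo30 was at 2.55, 2.24 and 2.52 FPKM on chow and at 2.96, 1.90 and 3.33 FPKM on HFD, with HFD 2 below and the other HFD libraries above the chow values. Its log2 fold change was 0.10 (SE 0.23), and −0.02 without HFD 3. Fbxo40 was at 16.2, 17.4 and 9.17 FPKM on chow and at 14.8, 12.6 and 17.3 FPKM on HFD. NC 3 was the lowest of its libraries and the other 5 lay between 12.6 and 17.4 FPKM. A log2 fold change of 0.10 (SE 0.26) turned to −0.17 without NC 3 and −0.01 without HFD 3. Cblb, a RING ligase gene known for restraint of signalling from receptors in T cells and, in unloaded muscle, of IRS1, was at 1.14, 1.08 and 1.26 FPKM on chow and at 1.06, 1.09 and 1.82 FPKM on HFD. HFD 3 was the 1 library outside a narrow range, and the log2 fold change of 0.09 (SE 0.22) was −0.06 without it. Fbxo30 lies on chromosome 10 from 11281330 to 11298052, Fbxo40 on chromosome 16 from 36963460 to 36990467 on the minus strand and Cblb on chromosome 16 from 52031225 to 52208048. All 10 are protein-coding genes.

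**Figure D2:**
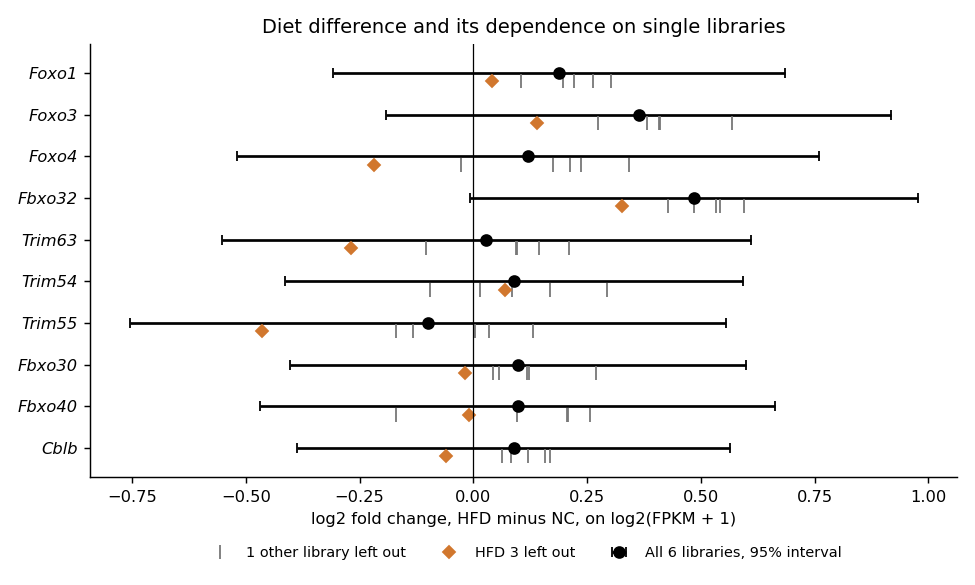
The log2 fold change (HFD minus NC) of each gene with all 6 libraries (black point, 95% interval), with 1 library left out (grey ticks) and with HFD 3 left out (orange diamond). Each interval includes 0, that of Fbxo32 narrowly (−0.01 to 0.98), and without HFD 3 the value of Trim63 lies at −0.27.

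HFD 3 set much of the pattern within the HFD group. It was the highest library for 8 of the 10 genes, where the share over all tested genes was 34.5%, and for 7 of the 10 after division by the median ratios, where it was 14.5%. The exceptions as deposited were Trim54, highest in HFD 2, and Fbxo40, highest in NC 2. In the other gene lists described below, HFD 3 was highest for 31.6% (glucocorticoid targets) to 60.0% (upstream of FoxO) as deposited. After scaling it was highest for 19.0% (cullin-RING parts) to 33.3% (upstream of FoxO), so these lists also stood above the share of all tested genes there. After scaling Foxo4 was at 14.9 FPKM in HFD 3 against 8.18 to 10.1 FPKM in the other 5 libraries, and Trim55 at 7.75 against 3.43 to 6.27 FPKM. The coefficient of variation within a diet was larger on HFD than on NC for 9 of the 10 genes, from 7.03 to 18.7% on chow and from 22.6 to 56.5% on HFD for those 9. Fbxo40 was the exception, at 31.1% on chow and 15.9% on HFD. The coefficient was larger on HFD for 62.9% of all tested genes. After median-ratio scaling the count was 8 of 10, with Fbxo32 a further exception, and the share of all genes was 58.9%. Erythroid markers were lowest in HFD 3, where 5 of 5 listed genes were detected and summed to 1241 FPKM, against 2025 to 8294 FPKM in the NC libraries and 7428 and 13371 FPKM in HFD 1 and HFD 2. Atrial markers were highest in HFD 3 among the HFD libraries. The part of either in these library values was not tested. Atrial markers entered an alternative fit of the diet difference as a covariate, in which none of the 10 genes passed.

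**Figure D3:**
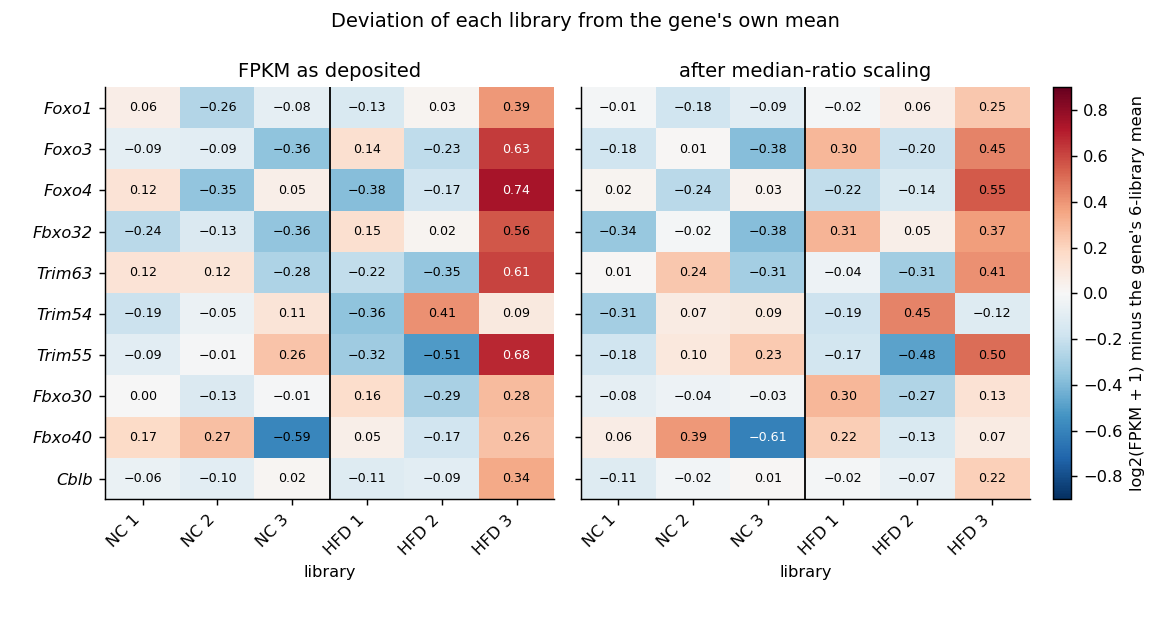
Heat map of log2(FPKM + 1) minus the mean of the gene over the 6 libraries, as deposited (left) and after median-ratio scaling (right), with genes in rows and libraries in columns. HFD 3 is the highest library in 8 of 10 genes on the left and in 7 of 10 on the right, and Trim54 departs from the others, with its highest value in HFD 2.

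Levels of FoxO genes and their ligase targets were also compared across the 6 libraries, in 6 relations. Foxo3 and Fbxo32 had the highest correlation of log2 levels (Pearson r = 0.92, exact permutation p = 0.0139, adjusted 0.0833; Spearman rho = 0.77, exact permutation p = 0.103, adjusted 0.308). It was 0.46 without NC 3 and HFD 3, the libraries farthest from the median of Foxo3, and 0.72 without HFD 3 alone. After median-ratio scaling and quantile normalization the farthest libraries were HFD 1 and HFD 3, and r without them was 0.64 and 0.69. Within diets r was 0.96, and it was 0.91 after median-ratio scaling and 0.94 after quantile normalization. Foxo3 and Trim63 had r = 0.81 (exact permutation p = 0.0514, adjusted 0.154; rho = 0.77, exact permutation p = 0.103, adjusted 0.308). Without the 2 farthest libraries r was 0.03 as deposited, 0.85 after median-ratio scaling and 0.88 after quantile normalization. For Foxo1 r was 0.67 with Fbxo32 (exact permutation p = 0.147, adjusted 0.212; rho = 0.26, exact permutation p = 0.658, adjusted 0.658) and 0.64 with Trim63 (exact permutation p = 0.178, adjusted 0.212; rho = 0.43, exact permutation p = 0.419, adjusted 0.658). Without the 2 libraries farthest from the median of Foxo1 these were −0.30 and 0.45 as deposited, 0.54 and 0.01 after median-ratio scaling and 0.24 and −0.90 after quantile normalization. Fbxo32 and Trim63 had r = 0.61 (exact permutation p = 0.212, adjusted 0.212; rho = 0.31, exact permutation p = 0.564, adjusted 0.658), and 0.97 within diets. That within-diet value was 0.86 after median-ratio scaling and 0.82 after quantile normalization. Without the 2 libraries farthest from the median of Fbxo32 it was −0.83 as deposited, 0.37 after median-ratio scaling and −0.14 after quantile normalization. Klf15 and Trim63 had r = 0.74 (exact permutation p = 0.111, adjusted 0.212; rho = 0.26, exact permutation p = 0.658, adjusted 0.658). Without the 2 libraries farthest from the median of Klf15 it was −0.64 as deposited, 0.44 after median-ratio scaling and 0.78 after quantile normalization. Without HFD 3 alone, r as deposited was 0.30 for Foxo3 with Trim63, −0.29 for Fbxo32 with Trim63 and −0.17 for Klf15 with Trim63. For Foxo1 it was −0.15 with Fbxo32 and −0.25 with Trim63. As deposited, after median-ratio scaling and after quantile normalization, r within diets was 0.58, −0.09 and 0.16 for Foxo1 with Fbxo32. In the same order it was 0.70, 0.40 and 0.69 for Foxo1, 0.95, 0.92 and 0.91 for Foxo3 and 0.78, 0.61 and 0.68 for Klf15, each with Trim63. No relation passed after adjustment. Except for Foxo3 with Fbxo32, the values over 4 libraries changed widely or in sign between scalings. In each relation the 2 libraries left out were not the same in every scaling. For both Foxo1 relations they were NC 2 and HFD 3 as deposited and also after median-ratio scaling. For Fbxo32 with Trim63 they were NC 3 and HFD 3 as deposited and also after quantile normalization. Between those settings only the scaling differed, and elsewhere the scaling and the libraries kept changed together.

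Likeness to other genes was described by the correlation of log2 levels over the 6 libraries after the mean of each diet was subtracted, which leaves few degrees of freedom. The nearest genes to Fbxo32 were the autophagy gene Wipi1, the Mediator subunit gene Med16, the peroxiredoxin gene Prdx6, the chaperone gene Hsp90ab1 and the Mediator subunit gene Med21, with r from 0.993 for Med21 to 0.999 for Wipi1. Those of Trim63 were the histone chaperone gene Nap1l4, Mat2a, which encodes a methionine adenosyltransferase, the kinase gene Wnk1, Aifm1 and Fam120a, with r from 0.996 for Fam120a to 0.998 for Nap1l4. At a lower bar, 443 tested genes (3.87%) had r above 0.9 with Fbxo32 and 592 (5.17%) with Trim63. These correlations used FPKM as deposited, and the part of library scale in them was not tested. Wipi1, for example, was at 12.0, 13.3 and 11.0 FPKM on chow and at 10.3, 8.99 and 14.6 FPKM on HFD, following Fbxo32 within each diet, while its diets overlapped.

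Upstream of FoxO, 30 of 32 listed genes of insulin signalling and its kinases and phosphatases were tested. None passed, 19 were higher and 11 lower on HFD, and the median log2 fold change was 0.08. It was −0.06 without HFD 3, where that of all tested genes was −0.11. Sgk1, a kinase that phosphorylates FoxO3 and is induced by glucocorticoids, was at 40.7, 21.8 and 20.3 FPKM on chow and at 45.4, 61.3 and 43.2 FPKM on HFD. Its HFD values all lay above its NC values, as for 3.25% of the tested genes (log2 fold change 0.89, SE 0.27). The phosphoinositide 3-kinase inhibitor gene Pik3ip1 had a log2 fold change of 0.47 and the pseudokinase gene Trib3, whose product binds AKT, one of 0.39, and the diets overlapped in both.

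Of 22 listed co-regulators and 14-3-3 genes 20 were tested, and none passed, with 12 higher, 8 lower and a median of 0.12. With 1 library left out this median was 0.002 to 0.18, and that of all tested genes was −0.11 to 0.05. Sirt1, a deacetylase of FoxO proteins, was at 2.94, 1.84 and 2.32 FPKM on chow and at 3.13, 3.73 and 3.93 FPKM on HFD. Ep300, an acetyltransferase that acts on them, was at 2.78, 1.74 and 2.29 FPKM on chow and at 3.10, 2.88 and 4.35 FPKM on HFD. In both the HFD libraries lay above the NC libraries, as for 3.25% of all tested genes, by log2 fold changes of 0.46 (SE 0.22) and 0.44 (SE 0.24). The coactivator gene Ppargc1a had a log2 fold change of 0.34, with HFD 3 at 8.73 FPKM and the other libraries between 3.83 and 4.94 FPKM, and Sirt2 had one of −0.24.

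FoxO and atrophy target genes other than the 10 genes described, 41 tested of 43 listed, were higher on HFD in 31 and lower in 10, with a median log2 fold change of 0.14, and none passed. Without HFD 3 the median was 0.03, against −0.11 over all tested genes. The list shares Pik3ip1 and others with the upstream list and Klf15 and others with the glucocorticoid list. It shares Mul1 with the list of other muscle ligases and also holds the F-box genes Fbxo21 and Fbxo31. Its smallest p was that of Tnfrsf12a, the receptor of the cytokine TWEAK, which was lower on HFD, at 21.9, 20.6 and 12.5 FPKM on chow and 11.1, 11.1 and 12.98 FPKM on HFD (log2 fold change −0.57, SE 0.24). Sesn1, a stress-response gene that restrains mTORC1, was at 13.5 ± 3.01 and 20.04 ± 6.92 FPKM on chow and HFD (n = 3 each, ± SD, log2 fold change 0.51). For Ddit4, another gene that restrains mTORC1, the log2 fold change was 0.56 and the diets overlapped.

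Glucocorticoid target genes, all 19 of them tested, were higher on HFD in 16 and lower in 3, with a median log2 fold change of 0.39 and none past the threshold. Of all tested genes 46.9% were higher on HFD. With 1 library left out the list median was 0.23 to 0.52. Zbtb16 (log2 fold change 1.5, limma adjusted p = 0.352), Fkbp5 (0.996, adjusted p = 0.881) and Sgk1 had HFD values all above their NC values, as did 3.25% of all tested genes. For Sult1a1, where the diets overlapped, the log2 fold change was 0.53. In HFD 3 Zbtb16 and Fkbp5 were at 7.22 and 6.35 FPKM, their highest levels. Klf15 was at 14.5, 13.1 and 13.99 FPKM on chow and at 11.6, 15.8 and 26.0 FPKM on HFD, and only HFD 3 stood clear of the others. This list overlaps glucocorticoid genes already described as higher in these same libraries, and it is no independent support.

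Other muscle ligases showed no common direction. Of 39 tested E3 genes 21 were higher and 18 lower, with a median of 0.05 (−0.06 without HFD 3, against −0.11 over all tested genes) and none past the threshold. Fbxl22, an F-box gene of the cardiac sarcomere, was at 15.1, 17.8 and 17.4 FPKM on chow and at 8.43, 12.7 and 11.9 FPKM on HFD, with HFD below NC throughout, as for 4.88% of the tested genes (log2 fold change −0.58, SE 0.22). Asb2, which holds substrates for a cullin-5 ligase, was at 105 ± 12.7 and 77.8 ± 20.1 FPKM on chow and HFD (n = 3 each, ± SD, log2 fold change −0.45). Ubr2, an N-degron ligase gene, had a log2 fold change of 0.41.

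The shared machinery of ubiquitin transfer lay near the median of all genes. Cullin-RING parts, 21 tested genes from 24 listed symbols, were higher in 11 and lower in 10 with a median log2 fold change of 0.001. The symbols not found, Skp1, Tceb1 and Tceb2, are other names of Skp1a, Eloc and Elob, which were tested. E1, E2 and ubiquitin genes, 25 tested of 26, were higher in 12 and lower in 13 with a median of −0.01. Without HFD 3 these medians were −0.10 and −0.16, against −0.11 over all tested genes, and after quantile normalization they were 0.03 and 0.06, against 0.01. None of either list passed. Rbx1, the RING subunit that cullin ligases of the atrogin-1 type use, was at 34.2, 29.4 and 32.5 FPKM on chow and 26.4, 24.4 and 27.4 FPKM on HFD, without overlap (log2 fold change −0.29, SE 0.20). Uba1, the main E1 enzyme, was at 38.5, 50.0 and 38.9 FPKM on chow and 31.7, 33.0 and 35.2 FPKM on HFD, also without overlap (log2 fold change −0.33, SE 0.20). Nae1, of the NEDD8 pathway that activates cullins, was higher in each HFD library than in each NC library, by a log2 fold change of 0.17. Of all tested genes 4.88% had HFD below NC throughout, as Rbx1 and Uba1 did, and 3.25% had HFD above, as Nae1 did. The other genes named by rule were Elob (−0.28), Rnf7 (−0.22), Ube2j2 (−0.33), Ube2v2 (0.30) and Ube2g1 (0.29), in which the diets overlapped.

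Listed substrates and partners of the MuRF proteins and atrogin-1, 27 tested of 28, were lower on HFD in 21 and higher in 6, with a median log2 fold change of −0.13 and none past the threshold. That median was 0.02 after quantile normalization, which gives all libraries one distribution and put the median of all tested genes at 0.01. The list holds sarcomere genes with very high levels, such as the troponin gene Tnni3, at 5895, 5939 and 5576 FPKM on chow and 3621, 4941 and 4326 FPKM on HFD (log2 fold change −0.44, and 0.06 after quantile normalization). Csrp3, a Z-disc gene, had a log2 fold change of −0.40, the phosphatase gene Dusp1 one of −0.46 and Rcan1, an inhibitor of calcineurin, one of −0.37, and the diets overlapped in all 3.

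**Figure D4:**
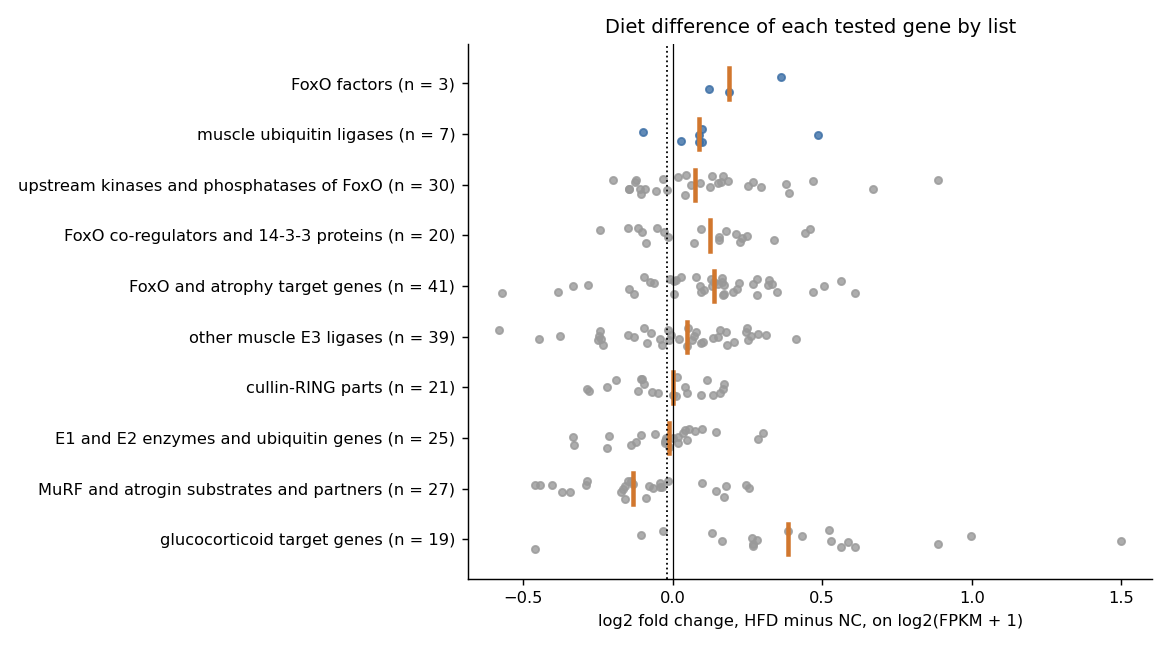
Each point is the log2 fold change (HFD minus NC) of 1 tested gene, by list, in blue for the 10 genes described and grey for the other lists, with orange bars at list medians and a dotted line at the median of all tested genes (−0.02). The glucocorticoid list has the highest median (0.39) and the substrates and partners the lowest (−0.13).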

How the data were processed

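mRNA-seq libraries of mouse heart, 3 per diet, were used. The authors' deposited table holds FPKM per gene and library, and all its value columns belong to these 6 libraries. Build mm10 and the tools HISAT2 2.2.1, Trimmomatic 0.38, HTSeq 0.13.5, FastQC 0.11.9, DESeq2 1.18.1 and R 3.4.1 appear, without roles, per the submitters' processing notes. The step that made FPKM is not given in these sources. Total RNA was extracted with Trizol, per the labels' protocols. Symbols were matched by gene identifier (23718 of 23808, with 90 unmatched). Depth is unknown, so no counting interval is given.

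Values were set to log2(FPKM + 1), which understates changes of low genes. Genes whose mean reached 1 FPKM were fitted in limma 3.58.1 (R 4.3.3, eBayes with trend, two-sided, Benjamini-Hochberg over 11456 genes, threshold 0.05), HFD minus NC, without covariates. The fit was tested on simulated data, with added changes larger than those of the 10 genes. Its power for changes as small as theirs was therefore not assessed. The members and lists were chosen with earlier results of these data known. Named were all 10 genes, Foxo6, up to 4 genes of smallest p per list (a gene may stand in several) and the 5 nearest genes to Fbxo32 and Trim63, without predicted models. Some genes that this rule picks are not reported here. Lists were described by counts and medians only. Alternatives were pseudocounts of 0.1 and 0.5, no filter or a minimum of 5 FPKM, 3 scalings, other variance models, library weights, a replicate block, an atrial covariate and each library left out. Plots used matplotlib 3.10.9 (Python 3.11.15).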

Additional observations from a re-analysis of the deposited data

How the results depend on the processing

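None of the 10 genes passed the limma threshold in the 18 alternatives run, and Foxo1, Foxo3 and Fbxo32 kept a positive log2 fold change in each in which they were tested (Foxo1 was not tested at a minimum of 5 FPKM). Signs turned, mostly when a library was left out. The log2 fold change of Trim63 was −0.0606 with library weights, and leaving out 1 library gave −0.268 (HFD 3) to 0.209 (HFD 2). The same range was −0.219 (without HFD 3) to 0.342 for Foxo4, −0.171 (without NC 3) to 0.256 for Fbxo40, −0.0948 (without HFD 2) to 0.294 for Trim54, −0.465 (without HFD 3) to 0.131 for Trim55, −0.0187 (without HFD 3) to 0.270 for Fbxo30 and −0.0594 (without HFD 3) to 0.168 for Cblb. The number of the 10 genes higher on HFD was 4 to 10 with 1 library left out, and their median log2 fold change was −0.01 to 0.23. In the same fits the median over all tested genes moved from −0.11 (without HFD 3) to 0.05 (without HFD 1). Over all genes 0 to 1 passed with 1 library left out (1 without NC 2), 1 passed with the atrial covariate and 73 with a replicate block, for which the cause was not tested. Same-numbered libraries deviated together with correlations of 0.19, 0.09 and 0.28. Of these 1 is under the 0.1 used as a minimum for pairing, so no pairing was assumed in the main fit. NC 2 correlated best with HFD 1 (0.25), while NC 1 and NC 3 correlated best with the HFD library of their own number. The replicate block called none of the 10 genes, but Zbtb16 and Fkbp5 passed with it. That fit leaves few residual degrees of freedom, and its smallest limma adjusted p was 1.42e-93, for Gm28437, so its calls are to be read with caution. Of the 30 other genes named by list, 28 kept their sign throughout, while Tnni3 was at 0.0612 after quantile normalization and Rnf7 at −0.371 (without HFD 3) to 0.0250 (without HFD 2) with 1 library left out. No relation passed under another pseudocount or scaling, where r of Foxo3 with Fbxo32 was 0.91 to 0.92. Depth is unknown, and the wide spread between HFD libraries limits what these 6 can show.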
